A study of Arabidopsis thaliana with 3 samples.

Results

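The genes described here are 10 Arabidopsis thaliana genes of jasmonate synthesis: the lipoxygenase genes LOX2, LOX3 and LOX4, the allene oxide synthase gene AOS, the allene oxide cyclase genes AOC1, AOC2, AOC3 and AOC4, the reductase gene OPR3 and the synthetase gene JAR1. They were chosen by locus as a pathway, with earlier results of these data known. All 10 were found among the 25383 loci that the arrays' transcript accessions matched. Together they had 20 of 43603 probes, and all 20 were well above background in every channel of every array, so all 10 passed the filter on dim probes.

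RNA of whole seedlings on day 7 was hybridised to 3 two-colour Agilent arrays, with 1 sample in each channel. On 2 arrays, each a biological replicate per the labels, the Cy5 channel held RNA of untreated fe-1 seedlings and the Cy3 channel RNA of untreated wild type (L.er), both taken at zeitgeber time 15 h. The third array held 35S::FE-GR (#5) seedlings at zeitgeber time 14 h, with RNA after Dex treatment in Cy5 and after mock treatment in Cy3. Dex was given as 1 µM for 2 h with the seedlings submerged. Every group grew on medium with 1% sucrose in long days at 22 °C. Both channels of the Dex array carry the transgene, in which the broadly active 35S promoter drives FE fused to a steroid receptor domain that holds the protein inactive until Dex arrives. The line is a single numbered one, its accession is not stated in the labels used here, and no Dex-treated plants without the transgene were analysed here. FE, a phloem Myb-related factor, is altered in fe-1, and the lesion is not described in the labels. The brightest FE (AT1G79430) probe read 9.84 in fe-1 and 9.99 in wild type on replicate 1 and 9.71 and 9.91 on replicate 2, as log2 signal, a ratio of -0.17 ± 0.03 (limma adjusted p = 0.0416 over all probes), while the other FE probes averaged -0.0047 and 0.06. Without knowledge of the lesion these values do not check the genotype. The brightest probe read 13.53 with Dex and 13.79 with mock.

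Jasmonate synthesis begins in the plastid, where lipoxygenases add oxygen to linolenic acid, AOS turns the hydroperoxide into an unstable allene oxide and an AOC enzyme closes its ring to give OPDA. OPR3 reduces OPDA in the peroxisome, beta-oxidation shortens the product to jasmonic acid, and JAR1 joins this to isoleucine. The conjugate binds the receptor COI1, which leads to loss of the JAZ repressors and release of MYC factors. Transcripts of many of these enzymes are known to rise after wounding and in response to jasmonate itself.

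Signals are given as log2 of the normalized intensity of a probe. They are not compared between probes or between the fe-1 and Dex arrays, which lay on different slides. A ratio is the log2 difference of the channels, mutant minus wild type or Dex minus mock, and ± gives the SD of 2 arrays. Each gene was read from its brightest probe. The test for fe-1 was limma's moderated test on the ratio, adjusted over all 20692 genes tested, with 0.05 as the threshold. With 1 residual degree of freedom, this fit made more false calls on a single set of simulated data than its threshold allows. The Dex array stands alone: its values carry neither error nor test, and a difference of at least 2-fold is counted in place of a call. Since the conditions separating the replicates are not described, the p-values may reflect technical spread alone.

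In fe-1, 5 of the 10 genes were higher than in wild type (LOX4, AOS, LOX2, AOC1 and OPR3), 0 were lower and 5 did not pass. Over all genes tested, 8.9% were called higher and 11.3% lower, 20.2% in all. The increases were modest, from 1.16-fold for OPR3 to 1.64-fold for LOX4. With Dex, AOC1, AOC3 and LOX4 were at least 2-fold higher than with mock and 0 of the 10 were at least 2-fold lower, against 3.58% and 2.95% of 20497 genes. The median ratio of the 10 genes was 0.14 in fe-1, against -0.01 over all genes, and 0.21 with Dex, against 0.00 over all genes. The fe-1 calls depend on the processing: 5 of the 10 genes were called higher with the flagged background spots left out, 0 with those spots kept, 1 from the scanner's processed signals, and 0 when the series value table was used. The flagged spots were left out with earlier results of these data known, and none of them belonged to the 10 genes. With the 4 channels as separate samples, 0 were called. Dyes were not swapped on any array, so a probe's dye effect and the group cannot be told apart.

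**Figure D1:**
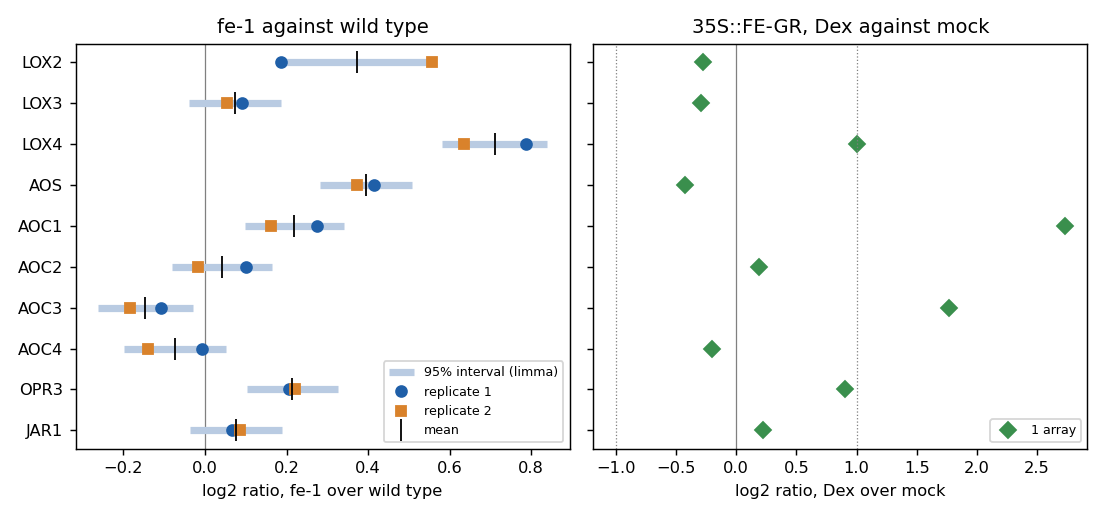
Log2 ratios of the 10 jasmonate synthesis genes, fe-1 over wild type on the left (circles and squares for replicates 1 and 2, ticks for the mean, bars for limma's 95% interval) and Dex over mock on the right (1 array, dotted lines at 2-fold). LOX4 has the highest fe-1 mean, 0.71, and AOC1 the highest Dex ratio, 2.73, while AOC3 reads -0.15 in fe-1 and 1.77 with Dex.

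The lipoxygenases supply the pathway's entry. LOX2 (AT3G45140), the plastid enzyme known for wound-induced jasmonate in leaves, read 15.44 in fe-1 and 15.26 in wild type on replicate 1, and 15.48 and 14.92 on replicate 2. Both fe-1 signals lay above both wild-type signals, and the arrays differed in how far. The ratio was 0.19 on replicate 1 and 0.56 on replicate 2, so leaving out replicate 2 lowers it by more than 1.5 times, and the mean of 0.37 ± 0.26 passed the test (adjusted p = 0.0199). All 4 LOX2 probes showed this pattern, with 0.16 to 0.20 on replicate 1 and 0.47 to 0.63 on replicate 2, and each passed the fit over all 33510 probes (adjusted p from 0.00584 to 0.0116). With Dex, LOX2 read 15.58 against 15.85 with mock, a ratio of -0.28, and its other probes read -0.34, -0.40 and -0.49. Under median centring in place of loess LOX2 read 0.61 in fe-1, and its ratio with Dex turned to 0.20.

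LOX4 (AT1G72520), known to act with LOX3 in male fertility, had the largest fe-1 ratio of the 10 genes under the processing used here. Its only probe read 8.52 in fe-1 and 7.74 in wild type on replicate 1, and 8.74 and 8.10 on replicate 2, with no overlap between the genotypes. The mean ratio was 0.71 ± 0.11, or 1.64-fold (adjusted p = 0.000255), which ranked 44 from the highest of all genes tested. With the flagged background spots kept, LOX4 read 0.36 (adjusted p = 0.381, range over 10 alternatives 4.17e-16 to 0.381), below LOX2 at 0.49. With Dex it read 7.93 against 6.93 with mock, a ratio of 1.01 that lies at the 2-fold limit. It read 1.29 with an offset of 16 in place of 50, 1.13 without background correction and 1.62 in the series value table, which differs in several steps. LOX4 lies on chromosome 1, as does FE, with 716 protein-coding genes between them in the RefSeq gene table. Among the 741 tested genes no farther from FE than LOX4, 8.23% were called higher and 11.2% lower, against 8.92% and 11.3% of all other genes; the part of linked differences in the LOX4 ratio was not tested.

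LOX3 (AT1G17420) was read by 4 probes that disagreed. The brightest read 0.09 and 0.05 on replicates 1 and 2 (mean 0.07 ± 0.03, adjusted p = 0.316, 95% interval -0.04 to 0.19). A dimmer probe read 0.35 and 0.27 and passed the fit over all probes (0.31 ± 0.06, adjusted p = 0.00278), whereas the remaining pair read 0.03 and 0.04 on average and did not. Which of its transcripts each probe detects was not examined. With Dex the 4 probes lay between -0.29 and -0.05, and the brightest moved from -0.29 to -0.07 under median centring.

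AOS (AT5G42650), a cytochrome P450 that commits the hydroperoxide to jasmonate synthesis, was higher in fe-1. It read 13.24 in fe-1 and 12.82 in wild type on replicate 1, and 12.89 and 12.52 on replicate 2. The fe-1 signals were above the wild-type signals on each array, by 0.41 and 0.37, and the mean of 0.39 ± 0.03 passed the test (1.31-fold, adjusted p = 0.00203). With Dex it read 13.01 against 13.43 with mock, a ratio of -0.42, or 1.34-fold lower, and under median centring that ratio shrank to -0.07. The dye orientation was the same on all 3 arrays.

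The AOC genes encode the cyclases that set the stereochemistry of OPDA. AOC1, AOC2 and AOC3 follow each other on chromosome 3 with 0 protein-coding genes between neighbours in the RefSeq gene table, and AOC4 lies on chromosome 1. The 4 genes gave different ratios on the Dex array. AOC1 (AT3G25760) read 14.28 with Dex and 11.55 with mock, a ratio of 2.73 or 6.64-fold, which ranked 83 of 20497 genes. Its second, dimmer probe read 10.29 and 8.77, a ratio of 1.52 or 2.87-fold. Both probes were thus above 2-fold, and they differed in size. AOC3 (AT3G25780) read 9.77 with Dex and 8.0 with mock, 3.41-fold, ranking 284. AOC2 (AT3G25770), which lies between them, read 12.97 and 12.78, only 1.14-fold, and AOC4 (AT1G13280) read 10.62 and 10.82, a ratio of -0.20 that turned to 0.13 under median centring. AOC1 exceeded AOC2 by 2.54 and AOC3 exceeded AOC2 by 1.58 in the log2 Dex ratio. Over the 9 alternatives to the processing run for this array, AOC1 lay between 2.13 and 3.08, AOC3 between 1.77 and 2.19 and AOC2 between 0.14 and 0.53. Several of these could not move the ratios: the array had no flagged background spots, and these probes pass every filter. The series value table also repeats the scanner's processed ratios apart from rounding, and the mean of probes leaves AOC2 and AOC3, with 1 probe each, as they were. The AOC sequences are related, and whether a probe also detects a neighbour's transcript was not tested.

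**Figure D2:**
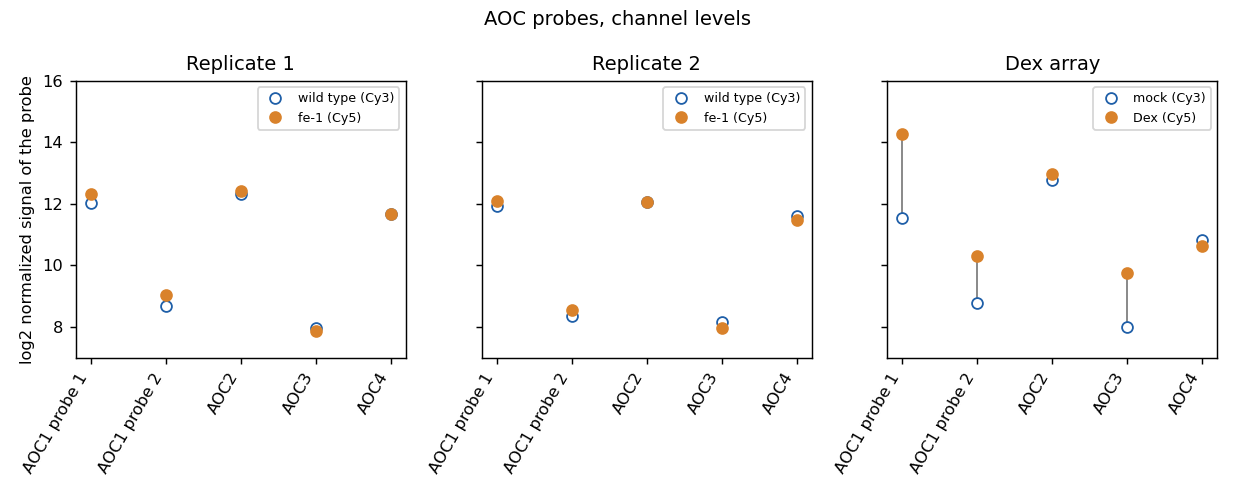
Log2 normalized signal of each AOC probe in the 2 channels of each array (open circles Cy3, filled circles Cy5, a grey line joining the channels of a probe). On the Dex array the AOC1 probes and AOC3 are higher with Dex, at 14.28 against 11.55, 10.29 against 8.77 and 9.77 against 8.0, whereas AOC2 and AOC4 lie close together; on the fe-1 arrays the channels differ by at most 0.35.

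In fe-1 the AOC ratios were small and AOC1 alone of the 4 was called. AOC1 read 12.31 in fe-1 and 12.03 in wild type on replicate 1, and 12.08 and 11.92 on replicate 2. The mean ratio was 0.22 ± 0.08 (1.16-fold, adjusted p = 0.0253), which fell to 0.11 with the flagged background spots kept, and the second probe gave 0.26 ± 0.12 (adjusted p = 0.0106 over all probes). AOC2 read 0.10 and -0.02 on the replicates, a mean of 0.04 ± 0.08 (adjusted p = 0.611) with a 95% interval of -0.08 to 0.16. AOC3 read -0.11 and -0.18, below 0 on both arrays, and did not pass (mean -0.15 ± 0.05, adjusted p = 0.0777, 95% interval -0.26 to -0.03). Without background correction AOC3 was called lower (adjusted p = 0.0395), and over 10 alternatives its adjusted p lay between 0.0395 and 0.682. AOC4 read -0.01 and -0.14 (mean -0.07 ± 0.09, adjusted p = 0.363, 95% interval -0.20 to 0.05). The fe-1 ratio of AOC1 exceeded that of AOC3 by 0.38 on replicate 1 and 0.35 on replicate 2, and that of AOC2 by 0.17 and 0.18. These differences between paralogs were not tested.

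OPR3 (AT2G06050), the peroxisomal reductase needed for most jasmonic acid formation, read 12.67 in fe-1 and 12.47 in wild type on replicate 1, and 12.81 and 12.59 on replicate 2. The ratios of 0.21 and 0.22 were close to each other, and the mean of 0.21 ± 0.01 passed the test (1.16-fold, adjusted p = 0.0205), and was 0.14 with the flagged background spots kept. The second OPR3 probe read higher, at 0.41 ± 0.03 (adjusted p = 0.000378 over all probes). With Dex, OPR3 read 13.41 against 12.51 with mock, 1.87-fold, and its second probe 1.98-fold. It thus fell just short of the 2-fold count, ranking 842 of all genes on the array, while LOX4 at 2.01-fold stood just inside it. Under median centring OPR3 read 1.25 with Dex and was counted.

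JAR1 (AT2G46370), which makes the active isoleucine conjugate, read 11.37 in fe-1 and 11.30 in wild type on replicate 1, and 11.33 and 11.24 on replicate 2. Its ratio of 0.08 ± 0.01 did not pass (adjusted p = 0.295, 95% interval -0.04 to 0.19). The dimmer JAR1 probes read -0.07 and -0.12 on average, so the sign depends on the probe. With Dex the 3 probes read 0.22, 0.08 and 0.22, and the brightest 0.56 under median centring.

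**Figure D3:**
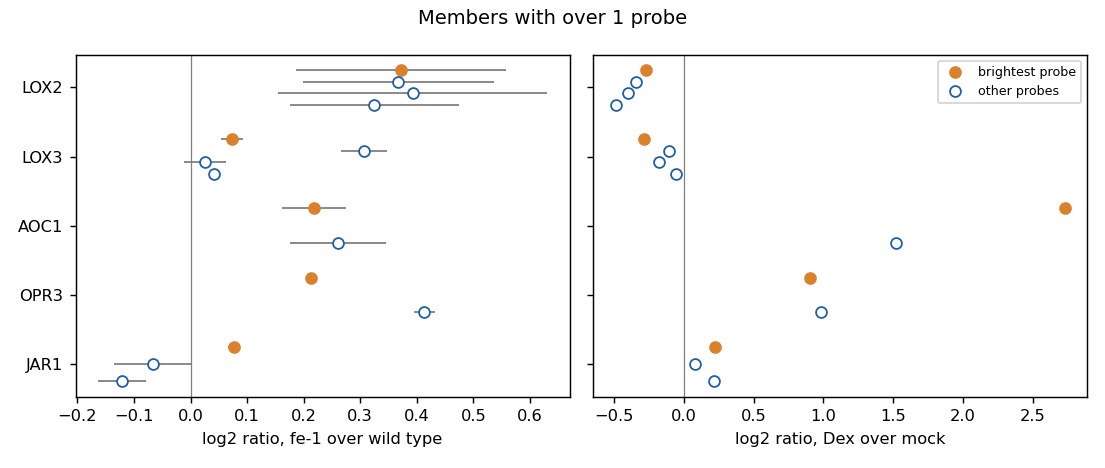
Log2 ratios of every probe for the 5 genes with over 1 probe, fe-1 over wild type on the left (points are the mean of 2 arrays, lines span the replicates) and Dex over mock on the right (1 array), with the brightest probe filled. The 4 LOX2 probes lie together at 0.32 to 0.39 in fe-1, 1 LOX3 probe stands apart at 0.31, and the AOC1 probes differ with Dex, at 2.73 and 1.52.

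Over single probes, 11 of the 20 were called higher in fe-1 and 0 lower, where 8.84% of 33510 probes were higher and 10.3% lower. The 11 were the 4 LOX2 probes, the LOX3 probe above, the LOX4 and AOS probes, and both probes each of AOC1 and OPR3. Probes of a gene share its transcripts and are not independent. By sign alone, 7 of the 10 genes lay above 0 on both fe-1 arrays, against 34.4% of all genes. LOX4 and AOC1 were both called higher in fe-1 and at least 2-fold higher with Dex, whereas LOX2 and AOS were higher in fe-1 and below mock with Dex, except that LOX2 was above mock under median centring.

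A second list held 20 further genes, some of jasmonate synthesis and some of related enzymes or branches. Of these, 18 could be tested in fe-1, of which 2 were higher, 5 lower and 11 not called, with a median of -0.09. Over all genes tested, 8.9% were called higher and 11.3% lower. OPCL1, which activates the OPDA-derived acid for beta-oxidation, rose by 0.22 ± 0.11 (adjusted p = 0.0310), and the plastid desaturase gene FAD7, which makes linolenic acid, rose by 0.19 ± 0.11 (adjusted p = 0.0477). Both rest more on replicate 2, since without it OPCL1 read 0.14 and FAD7 0.12. Most of the genes that fell are relatives of the pathway's enzymes: LOX1 and LOX5, lipoxygenases of a class outside jasmonate synthesis, fell by 0.31 ± 0.04 and 0.22 ± 0.04, the OPR3 relatives OPR2 and OPR1 fell by 0.25 ± 0.06 and 0.19 ± 0.04, and FAD3, the desaturase of the endoplasmic reticulum, fell by 0.23 ± 0.07. Dimmer probes of these genes were mixed in limma's fit over all probes. LOX5 read -0.11 and did not pass (adjusted p = 0.191), and FAD3 read -0.23, which passed, and -0.13 and -0.12, which did not. OPR1 read -0.41 and -0.30, and both passed. The genes of the peroxisomal chain ACX1, ACX5, AIM1, MFP2 and PED1 lay between -0.13 and 0.04 and were not called. LOX6 (AT1G67560), of the same lipoxygenase class as LOX2, LOX3 and LOX4, read below 0 on both arrays and was not called (-0.14 ± 0.01, adjusted p = 0.0848). DAD1 and DGL, lipase genes that can release the substrate, did not pass the filter.

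With Dex, 2 of the 18 genes of this list on the array were at least 2-fold higher and 0 lower. Among all genes on that array the shares were 3.58% and 2.95%. FAD3 read 12.39 against 11.18 with mock, 2.32-fold, and its other 3 probes lay between 0.94 and 1.20. The brightest probe of JMT, the methyltransferase that forms methyl jasmonate, was not well above background with mock. It read 2.07-fold higher with Dex, although the other JMT probes read 0.04 and 0.37. LOX5 stood just below the count at 0.92, OPCL1 read 0.59 and OPR2 0.56. The beta-oxidation genes named above stayed between -0.26 and 0.07.

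Another list held 10 genes that inactivate jasmonate. In fe-1, 9 of 10 could be tested, and CYP94B1, a hydroxylase of the isoleucine conjugate, alone was called, at -0.21 ± 0.04 (adjusted p = 0.0217). Of all genes tested, 11.3% were called lower. CYP94C1, which oxidises the conjugate further, read -0.01 and 0.71 on the replicates and was not called (adjusted p = 0.116). With Dex, CYP94B3, which carries out the same hydroxylation as CYP94B1, read 7.27 against 8.60 with mock, 2.51-fold lower. The amidohydrolase gene ILL6 read 8.87 against 7.85, 2.02-fold higher, and the other 6 of the 8 genes on the Dex array lay within 2-fold. Over all genes on that array, 3.58% were at least 2-fold higher and 2.95% lower.

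Among 15 signalling and response genes, 5 rose in fe-1, 3 fell and 7 were not called, with a median of 0.01. The repressor genes JAZ5, JAZ10 and JAZ1 rose, JAZ10 by 0.33 ± 0.05 (adjusted p = 0.00454) and JAZ1 by 0.22 ± 0.09 (adjusted p = 0.0271). A dimmer JAZ10 probe read 0.06 and 0.37 on the replicates and did not pass limma's fit over all probes (adjusted p = 0.0530). CORI3 and CLH1, known as coronatine-induced genes, rose by 0.30 ± 0.24 and 0.25 ± 0.06. In the fit over all probes, the other CORI3 probes read 0.26 (adjusted p = 0.0689) and 0.42 (adjusted p = 0.00337). The vegetative storage protein genes VSP1 and VSP2, textbook jasmonate-induced transcripts of the shoot, fell by 0.34 ± 0.33 and 0.30 ± 0.25. VSP1 read -0.58 on replicate 1 and -0.11 on replicate 2, and VSP2 -0.47 and -0.12, so both rest mainly on replicate 1, whereas CORI3 read 0.13 and 0.47. MYC4 fell by 0.17 (adjusted p = 0.0429), although its other probe read 0.07, and MYC2, the main jasmonate factor, read -0.14 ± 0.11 (adjusted p = 0.123). With Dex 0 of the 15 reached 2-fold in either direction: JAZ10 was the highest at 0.80 and CORI3 the lowest at -0.79. Among all genes on that array, 3.58% were at least 2-fold higher and 2.95% lower.

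**Figure D4:**
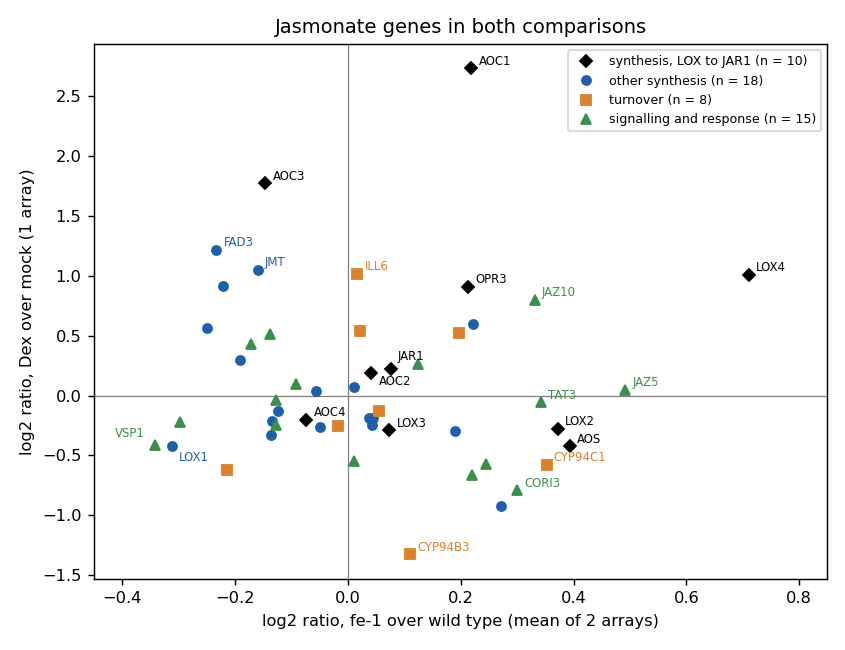
Log2 ratio of each jasmonate gene in fe-1 over wild type (horizontal axis, mean of 2 arrays) against Dex over mock (vertical axis, 1 array), with diamonds for the 10 synthesis genes described first and other symbols for the other lists. AOC1 and AOC3 lie highest on the Dex axis, followed by FAD3, JMT, ILL6 and LOX4, and LOX2 and AOS lie right of 0 and below 0, although LOX2 is above 0 with Dex under median centring.

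Marker lists differed between the groups as well, though not as blocks. Beside their counts, 8.9% of all genes tested in fe-1 were called higher and 11.3% lower. On the Dex array 3.58% of all genes were at least 2-fold higher and 2.95% lower. Touch-responsive genes were higher in fe-1, with 6 of 8 called higher, 0 lower and a median of 0.51, and that median was 0.66 on replicate 1 and 0.35 on replicate 2. Their summed signal was 12899 and 29900 in fe-1 and 7722 and 22515 in wild type on replicates 1 and 2, and 20856 with Dex against 21897 with mock, so the replicates differed more than the genotypes did. The near-equal Dex sums hide a split: the median touch ratio with Dex was -0.24, TCH2 was 3.18-fold higher and WRKY18 3.18-fold lower, with 6 of 8 within 2-fold. The dimmer ERF6 probe read 0.04 in fe-1, against 0.56 for the brightest, and did not pass limma's fit over all probes (adjusted p = 0.640). Dimmer probes of TCH2, WRKY18 and WRKY40 read 0.26 to 0.62 and passed it. Of the 5 synthesis genes called higher, LOX4, AOS and AOC1 had the larger ratio on replicate 1, and LOX2 and OPR3 on replicate 2. Of 8 leaf photosynthesis genes, 4 rose in fe-1 and 0 fell, with summed signals of 1112305 to 1115832 in fe-1, 861486 to 877673 in wild type, 1339179 with Dex and 1003817 with mock. These sums mostly restate the 4 genes that rose, whose probes gave most of the signal, and do not describe the list as a whole. The 4 were also higher in Cy5 on the Dex array: RBCS1A read 0.56 in fe-1 and 0.62 with Dex, RBCS3B 0.55 and 0.66, LHCB1.3 0.45 and 0.43, and PSBO1 0.34 and 0.60. The other 4 lay between -0.13 and 0.08 in fe-1 and between -0.14 and 0.26 with Dex. Without a dye swap, dye and group cannot be told apart here. These values rest on the brightest probe of each gene, and dimmer probes of the risen genes read lower in part: LHCB1.3 down to -0.04 in fe-1 and -0.42 with Dex, RBCS3B to -0.07 in fe-1 and PSBO1 to 0.0059 in fe-1. Of 9 root genes, 2 rose and 5 fell, with summed signals of 6700 to 7429 in fe-1, 8211 to 8676 in wild type, 5181 with Dex and 6252 with mock. Those that fell were the root hair genes COBL9, RHS19, EXPA7 and EXPA18, and CASP1. NRT2.1 and TIP2;3 rose, and SCR and SHR were not called. The dimmer TIP2;3 probe read 0.20 in fe-1, against 0.64 for the brightest, and passed the fit over all probes. Leaf and root markers were both present, and all of the touch and leaf markers tested and 8 of the 9 root markers were well above background in every channel. In bulk tissue fewer cells of a type and less RNA per cell cannot be told apart, and the part of these markers in the jasmonate results was not tested.

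**Figure D5:**
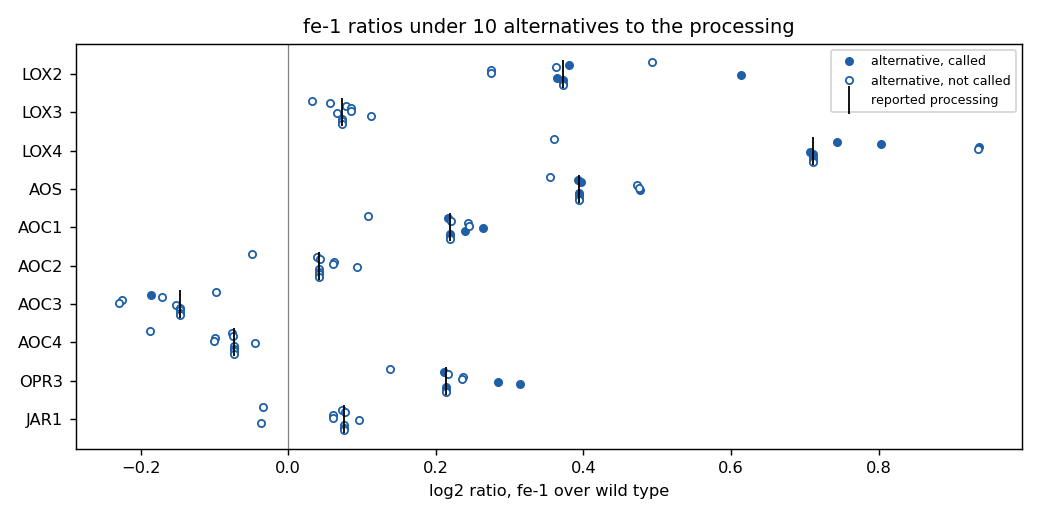
Log2 ratio, fe-1 over wild type, of the 10 genes under 10 alternatives to the processing (filled circles called at an adjusted p under 0.05, open circles not called) beside the reported value (ticks). LOX4, AOS, LOX2, AOC1 and OPR3 stay above 0 under all 10, with LOX4 called in 7, AOS in 6 and the others in 5 each, and AOC2 and JAR1 cross 0. No filter, the filter on every channel and no replicate block leave each ratio as reported, so they bear only on the calls.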

How the data were processed

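The deposited scanner files give the intensity of each spot in both channels. Per the file headers they were written by Feature Extraction 10.7.3.1, Agilent's image software, which the submitters' processing notes give as 10.7. Labelled cRNA came from 0.1 µg of total RNA per channel per the labels' protocols. Median spot and local background intensity were used. The scanner's own background-subtracted, dye-normalized intensity and its log10 ratio, both deposited, and the authors' deposited series table of log2 ratios served as alternatives; that table is the scanner's log10 ratio on the log2 scale (largest difference 0.005), with Cy5 over Cy3 and an array median of 0. On fe-1 replicate 1, 32 gene spots with a non-uniform background flag were left out, as were outlier spots (8 to 43 of 43803 gene spots in all, none for the members). Then limma 3.58.1 (R 4.3.3) applied normexp (offset 50) and loess within each array. Channel signals of the fe-1 arrays were scaled with Aquantile.

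Spots of a probe were averaged, and accessions were matched to loci through RefSeq (TAIR10.1, names and order only; 34285 of 43603 probes matched). The filter kept probes that the scanner marked well above background in 2 or more of the 4 fe-1 channels, or in 1 or more of the 2 Dex channels. For fe-1, limma tested the ratio against 0 with 1 residual and 6.53 prior degrees of freedom and Benjamini-Hochberg adjustment. On a single set of simulated data the fit recovered most changed genes, but false calls made up a larger share than the threshold allows. That set had independent noise and fewer changed genes than were called here. The adjusted p-values may thus be too small, and the simulation cannot show by how much. Probes well above background made up 72.3% to 75% in Cy5 and 75.2% to 78.2% in Cy3, and the number of arrays limits the precision. Genes named beyond the 10 were, in each list, those called in fe-1 (up to the 6 largest) or at least 2-fold different on the Dex array; other list members are named for contrast and were chosen after their values were seen. The members and lists were chosen, and the flagged background spots left out, with earlier results of these data known. Probe and promoter sequences were not used here.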

Additional observations from a re-analysis of the deposited data

How the results depend on the processing

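Of the 10 alternatives to the processing of the fe-1 arrays, including that with no replicate block, 5 left the number of synthesis genes called higher at 5. These were the mean of probes, median centring, no background correction, no filter and the filter on every channel. The filter changes could not drop a synthesis gene or move its ratio, since all their probes were well above background in every channel. They could act only through the other genes in the fit. With normexp offset 16 the number was 2 (other jasmonate genes 3 higher and 5 lower, all genes 1014 and 1498, synthesis probes 4). With the flagged background spots kept it was 0 (other genes 0 and 0, all genes 10 and 49, probes 0), with 2286 genes at an unadjusted p under 0.05. With the scanner's processed signals it was 1 (other genes 1 and 0, all genes 138 and 409, probes 0), and the higher share of all calls fell from 44.0% to 25.2%. In the series value table limma called 0 (other genes 0 and 0, all genes 0 and 0, probes 0), with 5 synthesis genes, 15 other jasmonate genes and 6037 genes at an unadjusted p under 0.05. With no replicate block, so that the 4 channels were separate samples without the pairing within an array, it was 0 (other genes 0 and 0, all genes 16 and 99). Each array holds fe-1 and wild type of 1 replicate, so the ratio itself is the paired fit. Median centring gave 1493 lower genes, mean of probes 6 lower other genes, and no background correction 1 lower synthesis gene and 1 lower probe. The cause of these changes was not tested. AOC2 turned to -0.050 and JAR1 to -0.034 with the flagged spots kept, and JAR1 to -0.038 with the mean of probes. Without 1 replicate, 7 to 8 synthesis genes were above 0, with no test. On the Dex array, 3 genes were at least 2-fold higher under 8 alternatives and 4 under median centring. Keeping the flagged spots and changing the filter could not alter these ratios. Both fe-1 arrays lay on 1 slide and were scanned together.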

Other observations

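HPL1 (AT4G15440), the hydroperoxide lyase gene of the branch that competes with AOS for substrate, was chosen after its values were seen. It read 12.74 in fe-1 and 12.75 in wild type on replicate 1, 12.80 and 12.25 on replicate 2, and 8.42 with Dex and 9.34 with mock in the 35S::FE-GR line. The fe-1 and Dex arrays share no common scale, and line, slide and treatment cannot be told apart across them, so no difference is drawn from these levels. In fe-1 its ratio was -0.01 on replicate 1 and 0.55 on replicate 2, and it was not called (limma adjusted p = 0.131). Several other jasmonate genes had their larger ratio on replicate 2 as well: CYP94C1 read -0.01 and 0.71, TAT3, an aminotransferase gene, 0.02 and 0.67, JOX4, a jasmonate oxidase gene, -0.10 and 0.49, and ORA47, a factor gene known to act on jasmonate synthesis genes, -0.13 and 0.38. None of these 4 was called (adjusted p from 0.101 to 0.423), and they were named after their values were seen.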
